A study of Mus musculus with 27 samples.

Results

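RNA levels of 10 genes of glucose uptake and glycolysis (Slc2a1, Hk1, Hk2, Pfkl, Aldoa, Gapdh, Pgk1, Eno1, Ldha and Pdk1) were followed through embryonic limb buds, limb bud-like tissue made from embryonic stem (ES) cells and other embryonic tissues. The 10 genes were chosen by name from the 23279 genes of the series, and each of them was tested in every comparison. Embryonic tissues came from Slc:ICR mouse embryos: forelimb buds (FLBs) and hindlimb buds (HLBs) labelled E10.0 (called early here) and E10.5, and branchial arch (BA), cardiac (Ca) and tail bud (TB) tissue of E10.5. These were cut from the embryo and used whole, so mesenchyme, surface epithelium, vessels and blood were sequenced together. ES–FLB and ES–HLB cells came from EB5 ES cells that carry GFP at the Hand2 locus, a gene of lateral plate and limb mesenchyme. Aggregates were started with BMP4 and Matrigel and later received LDN193189 (an inhibitor of BMP signalling) and Wnt3. Later culture was in high-glucose medium, with hydrocortisone added for both limb types. Cells were sorted for Hand2::mEGFP at day 9, so the ES-derived groups are Hand2-positive cells of a single cell line, pooled from many aggregates. The study calls them mesenchyme, and the levels of markers of other cell types in them are given below. ES–FLB aggregates had received retinoic acid and ES–HLB aggregates an antagonist of its receptor. Each group had 3 libraries, of which E10.5 HLB kept 2, since its replicate 2 holds no values on 6 whole chromosomes and was left out. The study's own text places early FLBs at a younger stage than early HLBs, although the labels give E10.0 for both. In the comparison of early HLB with early FLB, limb and stage therefore cannot be told apart.

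Values are CPM (counts of a gene scaled to a fixed library total) as deposited, brought to a common scale over 26 libraries and called scaled CPM. Depth, read from the spacing of the low values, was 19646365 to 22123894 reads in early limb buds, 5543237 to 5910165 in E10.5 limb buds and 6570302 to 8539710 in the other groups, so stage and sequencing depth cannot be told apart. The 6 limb mesenchyme markers summed to 610 to 1303 scaled CPM in limb bud and ES-derived libraries, to 836 to 890 in BA, which shares several of them, and to 264 to 300 in Ca. Cardiomyocyte markers summed to 19351 to 23286 in Ca, tail bud markers to 210 to 251 in TB and branchial arch markers to 313 to 344 in BA. Nothing in the labels says which libraries of a group came from separate litters or cultures, so p-values measure the spread between these libraries. In whole tissue, fewer cells of a type and less RNA per cell cannot be told apart.

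Glycolysis turns glucose into pyruvate. Slc2a1 (GLUT1) carries glucose into the cell, hexokinases trap it as glucose 6-phosphate, phosphofructokinase commits it to the pathway, and aldolase, Gapdh, phosphoglycerate kinase and enolase carry out later steps. Ldha, the A subunit of lactate dehydrogenase, turns pyruvate into lactate, and Pdk1 (pyruvate dehydrogenase kinase) restrains the oxidation of pyruvate in mitochondria. Embryonic tissue before and during organogenesis is known for high use of glucose and release of lactate. Many genes of the pathway are known targets of the hypoxia-inducible factor Hif1a and of Myc proteins, whose binding sites share the letters ACGTG.

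Promoters of 4 members are shown so that the sequences can be compared: Ldha and Pgk1, whose levels followed those of the other members closely, and the hexokinase genes Hk2 and Hk1, of which Hk1 followed the other members least. Each line holds the 250 bases before a RefSeq start site in GRCm38.p6, 5′ to 3′ on the gene's strand, and capitals mark every ACGTG or GCGTG on either strand (the cores of hypoxia-response elements). These letters may overlap the E-box CACGTG, which reads the same on both strands.
Pgk1: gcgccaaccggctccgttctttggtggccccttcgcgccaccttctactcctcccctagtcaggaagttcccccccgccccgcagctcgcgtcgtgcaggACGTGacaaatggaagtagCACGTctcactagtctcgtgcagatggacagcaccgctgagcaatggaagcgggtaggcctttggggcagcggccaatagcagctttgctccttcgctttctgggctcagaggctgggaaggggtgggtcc
Ldha: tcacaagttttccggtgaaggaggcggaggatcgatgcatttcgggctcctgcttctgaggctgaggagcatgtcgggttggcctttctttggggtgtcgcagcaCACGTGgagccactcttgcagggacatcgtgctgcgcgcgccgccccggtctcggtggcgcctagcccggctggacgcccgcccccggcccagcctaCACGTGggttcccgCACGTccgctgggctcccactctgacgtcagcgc
Hk2: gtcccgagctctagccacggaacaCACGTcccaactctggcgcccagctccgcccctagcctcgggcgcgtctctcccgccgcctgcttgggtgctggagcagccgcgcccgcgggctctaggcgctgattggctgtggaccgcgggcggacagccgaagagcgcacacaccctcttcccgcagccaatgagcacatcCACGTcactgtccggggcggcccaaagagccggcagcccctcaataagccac
Hk1: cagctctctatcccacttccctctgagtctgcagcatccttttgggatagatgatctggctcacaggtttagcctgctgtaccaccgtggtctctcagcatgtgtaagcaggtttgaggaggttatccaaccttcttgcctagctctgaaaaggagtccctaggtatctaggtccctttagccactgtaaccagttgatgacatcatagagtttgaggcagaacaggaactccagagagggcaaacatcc
The Pgk1 window lies at chrX:106186850-106187099 on the plus strand and has 2 matches to ACGTG. That of Ldha lies at chr7:46845554-46845803 on the plus strand and holds 2 copies of CACGTG, each counted on both strands, and 1 further ACGTG, a count of 5. The Hk2 window at chr6:82774455-82774704 (minus strand) has 2 matches. The Hk1 window at chr10:62379909-62380158 (minus strand) has 0, while the 250 bases before a second start site of Hk1 hold 3 matches to GCGTG and 0 to ACGTG. With the 50 bases after that start, the counts are 3 and 2. The 250 bases before a second start site of Ldha hold 1 match to GCGTG and 0 to ACGTG. Aldoa, not shown, followed the other members most closely. The first of its 3 windows holds 0 matches, and its others 1 ACGTG each. The window of Pfkl, also not shown, holds 1 GCGTG and 0 ACGTG. Of 17 windows of the members (300 bases, 250 before and 50 after the start), 14 held ACGTG or GCGTG, and all 10 members had such a window. Some windows of Aldoa and of Eno1 overlap, so the same site is counted in more than 1 window. The shares that follow are per window and not per gene, so the count of members has no matching background. Over all 32851 windows of the table, 43.8% held at least 1 of these letters, 19.6% ACGTG, 32.4% GCGTG and 7.15% CACGTG. A match is only a run of letters, and nothing about binding was measured.

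Summed over the 10 genes, early FLB stood highest, with 8721 ± 354 scaled CPM (SD, n = 3), and ES–FLB lowest, with 1912 ± 294 (n = 3). Ca had 7491 ± 463, early HLB 5214 ± 570, TB 4926 ± 107, E10.5 HLB 3925 ± 44.3 (n = 2), BA 3231 ± 60.1, E10.5 FLB 3138 ± 113 and ES–HLB 2773 ± 182. In deposited CPM, the 10 genes took 0.787% of the reads of early FLB and 0.204% of those of ES–FLB. The genes differed widely in level. Per kilobase of exon, Ldha was the highest member in early FLB, with 1629 scaled CPM per kb, followed by Pgk1 with 909 and Gapdh with 695, and Hk1 was the lowest, with 8.3 scaled CPM per kb.

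**Figure D1:**
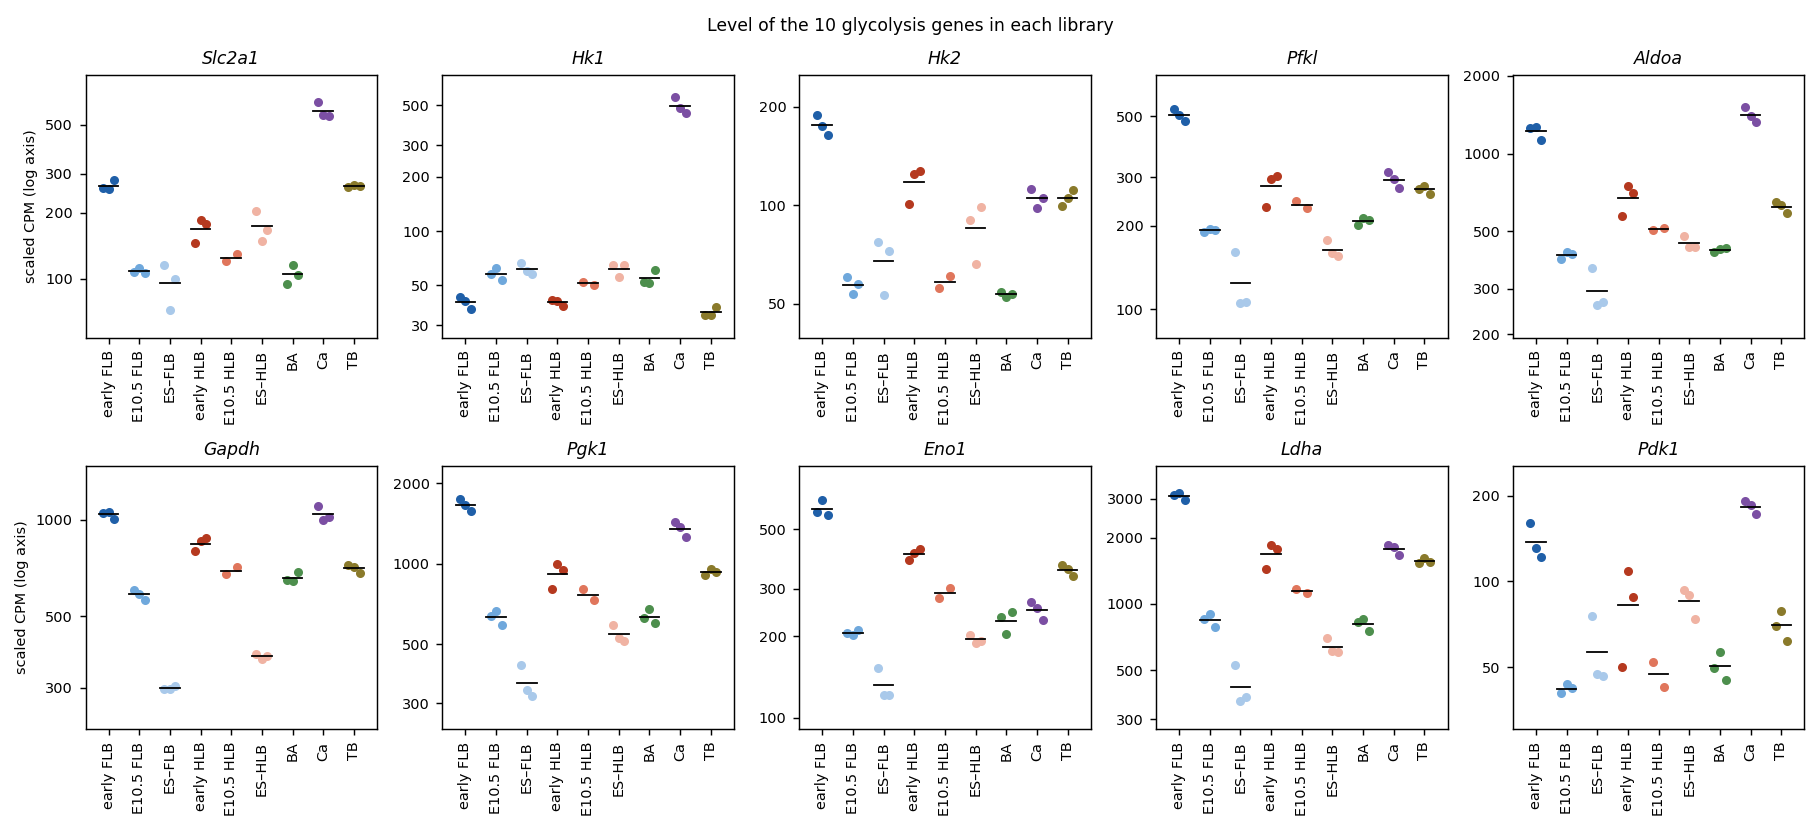
Scaled CPM of each of the 10 genes (log axis, own range in each panel) in each library of the 9 groups; points are libraries and black lines group means, with 2 libraries in E10.5 HLB and 3 in every other group. Each member had its highest mean in early FLB or Ca, and 7 had their lowest in ES–FLB, while Hk1 stood at a mean of 497 in Ca and of 35.4 to 62 elsewhere.

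Slc2a1 (chr4:119108711-119137983, plus strand, GRCm38) gave 258, 256 and 280 scaled CPM in the early FLB libraries and 145, 185 and 178 in early HLB. At E10.5 it gave 108, 112 and 106 in FLB and 120 and 130 in HLB. In ES–FLB it was at 116, 72.2 and 99.6, and in ES–HLB at 204, 149 and 166. Early FLB thus stood above every other limb bud library, and ES–HLB overlapped with early HLB. Ca was the highest group of all, with 633, 552 and 548 scaled CPM. TB (260 to 267) overlapped with early FLB, and BA (94.7 to 116) overlapped with E10.5 FLB and with ES–FLB.

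The hexokinase genes went different ways. Hk2 (chr6:82725025-82774454, minus strand), the form that responds to growth and oxygen signals, was at 188, 175 and 164 scaled CPM in early FLB and at 101, 125 and 127 in early HLB. By E10.5 it was at 60.6, 53.7 and 57.4 in FLB and at 55.9 and 60.9 in HLB, which overlapped. Hk1 (chr10:62268855-62379908, minus strand), the form found in most tissues and the main hexokinase of red blood cells and brain, was at 42.9, 41.2 and 36.8 in early FLB and at 41.5, 41 and 38.6 in early HLB. It was higher at E10.5, with 57.9, 62.6 and 53.3 in FLB and 52.4 and 50.3 in HLB. Hk1 was at 66.5, 60.2 and 58 in ES–FLB and at 64.9, 55.7 and 65.3 in ES–HLB, which overlapped. In Ca it was at 555, 482 and 453, far above every other library. Hk2 of Ca was at 98.4 to 112 and overlapped with early HLB.

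Per kilobase of exon, the ratio of Hk2 to Hk1 was 3.77 ± 0.09 (SD, n = 3) in early FLB and 2.52 ± 0.378 in early HLB. It was 0.859 ± 0.103 in E10.5 FLB and 0.921 and 1.05 in the libraries of E10.5 HLB. So Hk2 exceeded Hk1 in every early library, and at E10.5 both were near parity. ES–FLB (0.763 to 1.08) and ES–HLB (1.03 to 1.31) lay near the E10.5 limb buds, TB at 2.51 to 2.66 near early HLB, and Ca at 0.175 to 0.201 below all others.

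**Figure D2:**
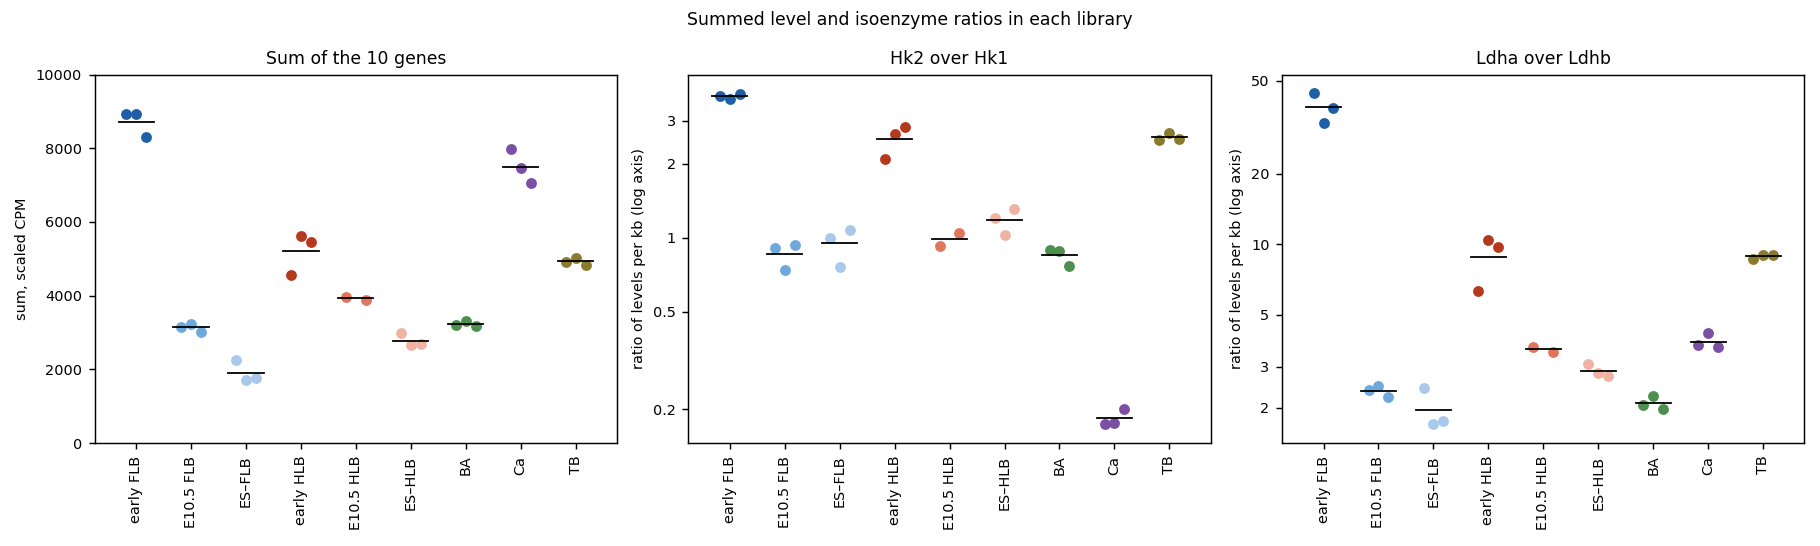
Sum of the 10 genes in scaled CPM (left), Hk2 over Hk1 (middle) and Ldha over Ldhb (right), the last pair as ratios of levels per kilobase of exon on log axes, in each library of the 9 groups; black lines are group means. Early FLB is highest in each panel, with a sum of 8312 to 8936, and Ca has the lowest ratio of Hk2 to Hk1, 0.175 to 0.201.

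Pfkl (chr10:77986947-78010083, minus strand), the liver form of phosphofructokinase, was at 530, 506 and 479 scaled CPM in early FLB and at 234, 296 and 303 in early HLB. It was at 190, 195 and 193 in E10.5 FLB and at 247 and 232 in E10.5 HLB, so that the order of the limbs was turned round. ES–FLB (161, 105 and 106) and ES–HLB (178, 159 and 156) overlapped through the first replicate of ES–FLB.

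The enzymes of the lower part of the pathway shared this order. Aldoa (chr7:126795234-126800751, minus strand), a fructose bisphosphate aldolase, was at 1259, 1266 and 1125 scaled CPM in early FLB, at 574, 747 and 701 in early HLB, at 391, 415 and 410 in E10.5 FLB and at 507 and 516 in E10.5 HLB. Pgk1 (chrX:106187100-106203699, plus strand), which makes ATP from 1,3-bisphosphoglycerate, was at 1744, 1658 and 1575 in early FLB and at 802, 1000 and 946 in early HLB. It was at 640, 666 and 592 in E10.5 FLB and at 802 and 732 in E10.5 HLB. Thus for both genes early FLB exceeded early HLB in every library, while E10.5 HLB exceeded E10.5 FLB in every library.

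Gapdh (chr6:125161715-125166467, minus strand), which oxidises glyceraldehyde 3-phosphate and often serves as a reference gene, varied less between groups than most members. It was at 1051, 1060 and 1005 scaled CPM in early FLB, 797, 856 and 877 in early HLB, 605, 585 and 564 in E10.5 FLB and 678 and 710 in E10.5 HLB. The ES-derived groups were lowest, with 297, 297 and 303 in ES–FLB and 382, 367 and 375 in ES–HLB. Its highest group mean was 3.48 times its lowest, against 3.28 times for Hk2, the least variable member, and 7.32 times for Ldha.

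Eno1 (chr4:150236721-150248879, plus strand), alpha-enolase, was at 579, 644 and 565 scaled CPM in early FLB, 385, 407 and 423 in early HLB, 206, 202 and 211 in E10.5 FLB and 277 and 302 in E10.5 HLB. A near-identical copy, Gm5506 (Eno1b in RefSeq), was listed beside it at 38.3 to 232 scaled CPM, so the counting may have split reads between them. Gm5506 followed the same order, with group means of 219 in early FLB, 147 in early HLB, 75.8 in E10.5 FLB and 109 in E10.5 HLB. The sum of both genes was 816 ± 55.3 in early FLB, 552 ± 29.9 in early HLB, 282 ± 5.49 in E10.5 FLB and 381 and 416 in the libraries of E10.5 HLB. The sum thus had the same order of limb bud groups as Eno1 alone. Related genes of other members stayed low: Pgk2 was at 0 in every library, and Aldoart1, Aldoart2, Gapdhs, Ldhc and Ldhal6b reached 0.781 scaled CPM at most.

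Ldha (chr7:46841475-46855627, plus strand) had the widest span of means among embryonic limb buds. It was at 3124, 3177 and 2959 scaled CPM in early FLB, at 1434, 1860 and 1771 in early HLB, at 859, 904 and 786 in E10.5 FLB and at 1165 and 1116 in E10.5 HLB. ES–FLB was at 526, 361 and 379 and ES–HLB at 698, 612 and 607, so that no ES-derived library reached an embryonic limb bud library. Ldhb, the B subunit, went the other way in FLB, from a mean of 56.1 scaled CPM in early FLB to 247 at E10.5. Per kilobase of exon, Ldha exceeded Ldhb 38.5 ± 5.69 times in early FLB and 8.83 ± 2.21 times in early HLB. At E10.5 the ratio was 2.37 ± 0.132 in FLB and 3.64 and 3.48 in the libraries of HLB.

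Pdk1 (chr2:71873224-71903858, plus strand) was less even between replicates. It was at 161, 131 and 122 scaled CPM in early FLB and at 50.1, 109 and 88.1 in early HLB. It was at 40.4, 43.6 and 42.2 in E10.5 FLB and at 51.9 and 42.7 in E10.5 HLB, and these ranges overlapped. In ES–FLB it was at 75.5, 47.1 and 46.5, and in ES–HLB at 93, 89.4 and 73.8. The first replicate of early HLB, at 50.1, lay within the range of E10.5 HLB.

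To ask how glycolysis genes differ between the limbs, HLB was compared with FLB at each stage and in culture (limma on log2(scaled CPM + 0.5), Benjamini-Hochberg adjustment over all genes tested). Among early limb buds, 8 of the 10 genes were lower in HLB and 0 higher, with a median log2 fold change of -0.73 against -0.01 over all genes. Of all 12516 genes tested, 11.2% were called lower and 9.08% higher. Ldha was 1.83-fold lower in HLB (log2 fold change -0.88 ± 0.09 SE, adjusted p = 0.000476), Pfkl 1.82-fold (adjusted p = 0.000882), Pgk1 and Aldoa 1.81-fold each, Slc2a1 1.56-fold, Hk2 1.5-fold, Eno1 1.47-fold and Gapdh 1.23-fold (-0.30 ± 0.05, adjusted p = 0.00167). For each of these 8 genes the ranges of the groups did not overlap. Pdk1 had a log2 fold change of -0.80 ± 0.34 and did not pass (adjusted p = 0.191), and that of Hk1 was 0.01, with a 95% confidence interval of -0.15 to 0.16. Erythroid markers summed to 3355 to 6855 scaled CPM in early HLB and to 2329 to 4361 in early FLB, and endothelial markers to 368 to 448 and 348 to 365. Limb mesenchyme markers summed to 917 to 1017 and 610 to 666, with 3 of 6 higher in HLB and 2 lower. The part of these cell types in the difference was not tested. In CPM without the common scale, 61.8% of all calls were higher in HLB in place of 44.7%, and the same number of members, 8, was lower.

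At E10.5 the sign was opposite and the differences smaller. HLB was higher than FLB in 7 of the 10 genes and lower in 0, with a median log2 fold change of 0.26 against 0.01 over all genes, where 13.3% of 12574 genes were called higher and 11.5% lower. Eno1 was 1.4-fold higher in HLB (0.49 ± 0.05, adjusted p = 1.96e-11), Ldha 1.34-fold (0.43 ± 0.04, adjusted p = 1.92e-09), Aldoa 1.26-fold, Pfkl 1.24-fold, Pgk1 1.21-fold, Gapdh 1.19-fold and Slc2a1 1.15-fold. Hk1 (-0.17 ± 0.08, adjusted p = 0.134), Hk2 (0.03 ± 0.08) and Pdk1 (0.16 ± 0.09, adjusted p = 0.2) did not pass. Erythroid markers overlapped, at 2713 to 3896 in HLB and 2814 to 4042 in FLB. Endothelial markers (340 to 359 and 306 to 315) were higher in sum in HLB, with 2 of 7 called higher and 0 lower. Limb mesenchyme markers (1298 to 1303 and 1026 to 1039) were also higher in sum, with 3 of 6 higher and 1 lower. Of neural and crest markers 3 of 4 were lower. The part of these cell types in the difference was not tested. With all 26 libraries sharing a spread, 4 members were higher, and Slc2a1 also lost its call without E10.5 HLB replicate 3 (0.15, adjusted p = 0.169). The share of calls that were higher in HLB was 31.1% on unscaled CPM in place of 53.5%, and among the members 6 were higher and 1, Hk1, was lower.

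In culture all 10 genes had a positive difference of ES–HLB against ES–FLB, though that of Hk1 was 0.01 and changed sign with single replicates, with a median of 0.59 against 0.00 over all genes, yet 3 passed the test as higher and 0 as lower. The background was 12.3% higher and 12.4% lower of 13132 genes. Gapdh was 1.25-fold higher in ES–HLB (0.33 ± 0.04, adjusted p = 2.5e-08), Eno1 1.47-fold (0.57 ± 0.08, adjusted p = 0.000186) and Pgk1 1.52-fold (0.61 ± 0.12, adjusted p = 0.0306). Slc2a1 had the largest difference, 0.86 ± 0.23 (adjusted p = 0.0687), followed by Pdk1, 0.63 ± 0.24 (0.163), and by Aldoa (0.0548) and Ldha (0.0807), 0.62 each. Replicate 1 of ES–FLB was the highest of its group in 9 of the 10 genes, with a median of 0.39 on the log2 scale above the other replicates. Without it 7 members were higher, and with all 26 libraries in a single model also 7. The call of Pgk1 was lost without ES–FLB replicate 2 or any single replicate of ES–HLB (adjusted p 0.073 to 0.103). Erythroid markers summed to 90.4 to 171 scaled CPM in ES–HLB and to 5.83 to 8.72 in ES–FLB, endothelial markers to 41.7 to 47.4 and 27.1 to 32, and surface epithelium markers to 212 to 224 and 112 to 163, and their part in the result was not tested.

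**Figure D3:**
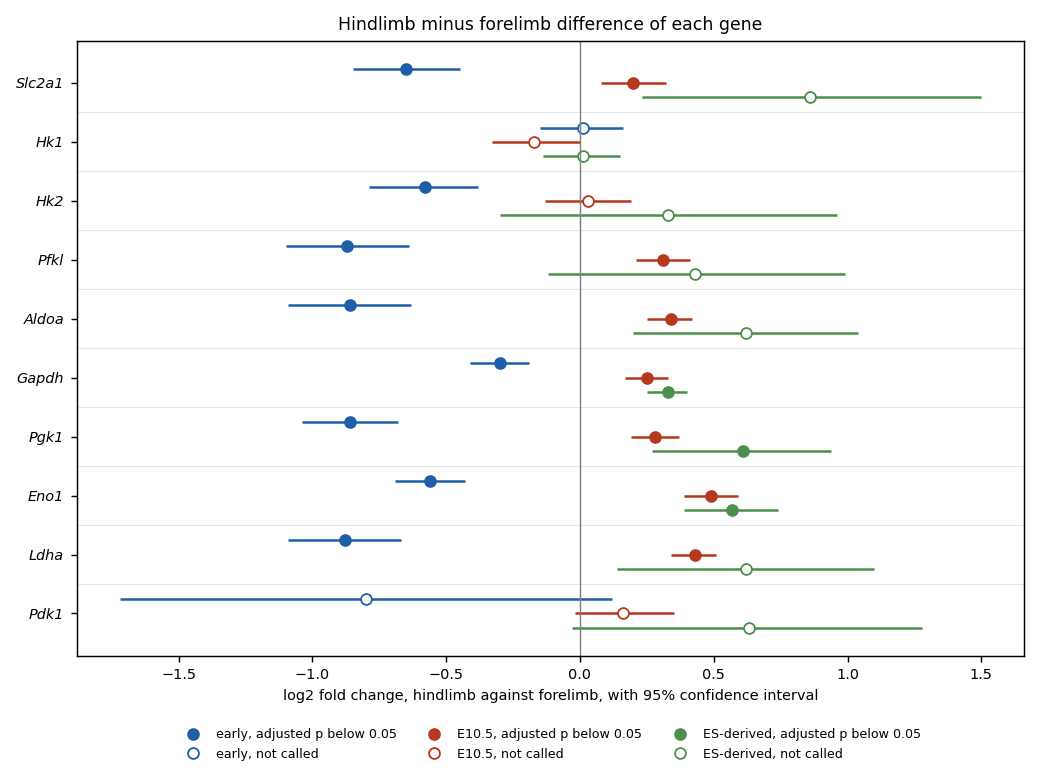
Log2 fold change of hindlimb against forelimb with its 95% confidence interval for each gene, in early limb buds (blue), E10.5 limb buds (red) and ES-derived tissue (green); filled points have an adjusted p below 0.05. Of the early points 8 lie below 0 and are filled, while 7 filled points at E10.5 and 3 in ES-derived tissue lie above 0; Hk1 lies near 0 in each and its sign in early and ES-derived tissue changed with single replicates.

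Between the stages, FLBs moved most. At E10.5, 9 of the 10 genes were lower than in early FLB and 1, Hk1, was higher, with a median log2 fold change of -1.46 against -0.04 over all genes. This stood against a background in which 36.1% of 12779 genes were lower and 29.0% higher. Ldha fell 3.63-fold (-1.86 ± 0.05, adjusted p = 5.87e-14), Pdk1 3.28-fold (-1.69 ± 0.09), Hk2 3.07-fold (-1.61 ± 0.06), Aldoa 3-fold, Eno1 2.89-fold, Pfkl and Pgk1 2.62-fold each, Slc2a1 2.43-fold and Gapdh 1.78-fold (-0.83 ± 0.04). Hk1 rose 1.44-fold (0.52 ± 0.08, adjusted p = 1.15e-05). In no gene did the ranges of both stages overlap. Cell type markers moved as well. Surface epithelium markers, 5 of 7 lower and 1 higher, summed to 345 to 439 in early FLB and 273 to 284 at E10.5. Endothelial markers were split, with 4 of 7 lower and 3 higher, and summed to 348 to 365 and 306 to 315. Limb mesenchyme markers, 4 of 6 higher and 2 lower, summed to 610 to 666 and 1026 to 1039. The part of these cell types in the stage change was not tested. Unscaled CPM gave 66.0% of all calls as higher in place of 44.6%, with 9 members lower and 1 higher as before.

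HLBs moved the same way by less. At E10.5, 6 of the 10 genes were lower than in early HLB and 1, Hk1, was higher, with a median of -0.41 against -0.03 over all genes, beside a background of 17.6% lower and 11.5% higher of 12401 genes. Hk2 fell 2.01-fold (adjusted p = 0.000135), Ldha 1.48-fold (-0.56 ± 0.11, adjusted p = 0.00849), Eno1 1.4-fold, Slc2a1 1.35-fold, Aldoa 1.32-fold and Gapdh 1.21-fold, and Hk1 rose 1.27-fold (0.34 ± 0.08, adjusted p = 0.00658). Pfkl (-0.20 ± 0.11), Pgk1 (-0.25 ± 0.09, adjusted p = 0.0691) and Pdk1 (-0.73 ± 0.41, adjusted p = 0.285) did not pass. Surface epithelium markers, of which 5 of 7 were lower, summed to 314 to 367 in early HLB and 254 to 276 at E10.5. Endothelial markers (3 of 7 lower) summed to 368 to 448 and 340 to 359. Limb mesenchyme markers, 3 of 5 tested higher and 1 lower, summed to 917 to 1017 and 1298 to 1303. The part of these cell types was not tested. Here 1 library weighed much: 3 members were lower without either of the 2 E10.5 HLB libraries, 0 members were higher without replicate 1 of them, and 9 were lower without replicate 1 of early HLB. That replicate was the lowest of its group in 9 of the 10 genes, by a median of -0.32 on the log2 scale. Of all calls, 56.2% were higher in unscaled CPM in place of 39.5%, and the members kept counts of 6 lower and 1 higher.

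**Figure D4:**
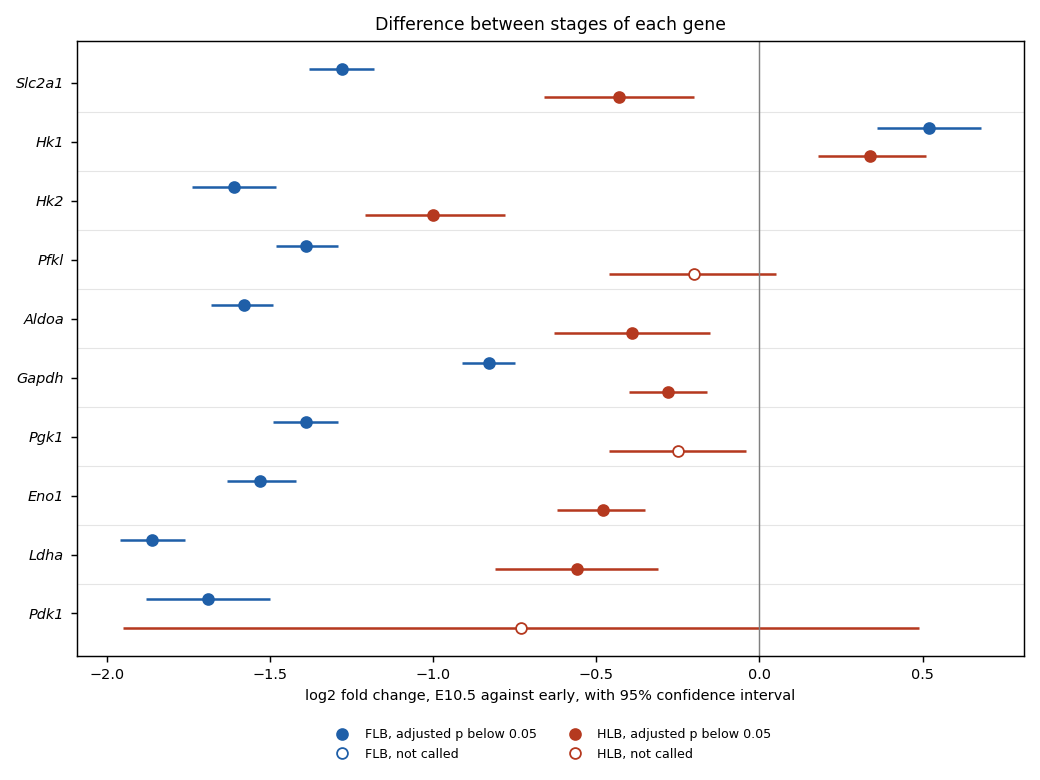
Log2 fold change of E10.5 against early limb buds with its 95% confidence interval for each gene, in FLB (blue) and HLB (red); filled points have an adjusted p below 0.05. In FLB 9 filled points lie between -1.86 and -0.83 and Hk1 lies at 0.52, and in HLB the 6 filled points below 0 and that of Hk1 lie nearer to 0.

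The difference between these stage changes was tested itself, as an interaction over the 4 limb bud groups. The log2 fold change of HLB lay above that of FLB in 8 of the 10 genes, which fell less in HLB, and below it in 0, with a median difference of 1.00 against 0.02 over all genes, where 13.0% of 12992 genes were called higher and 10.2% lower. Ldha differed by 1.30 ± 0.14 (adjusted p = 0.000186), Aldoa by 1.19 ± 0.13, Pfkl by 1.18 ± 0.12, Pgk1 by 1.14 ± 0.12, Eno1 by 1.04 ± 0.08, Slc2a1 by 0.85 ± 0.11, Hk2 by 0.61 ± 0.12 and Gapdh by 0.55 ± 0.07. Pdk1 (0.96 ± 0.41, adjusted p = 0.137) and Hk1 (-0.17 ± 0.11, adjusted p = 0.277) did not pass. With unscaled CPM 29.0% of all calls were higher in place of 56.0%, and 8 members stayed higher.

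The ES-derived difference between hindlimb and forelimb was tested against the early embryonic one in the same way. It was higher in 9 of the 10 genes and lower in 0, with a median of 1.36 against 0.01 over all genes and a background of 12.5% higher and 10% lower of 13616 genes. Slc2a1 differed by 1.51 ± 0.26 (adjusted p = 0.00361), Ldha by 1.50 ± 0.21, Aldoa by 1.48 ± 0.20, Pgk1 by 1.47 ± 0.16, Pfkl by 1.30 ± 0.24, Eno1 by 1.12 ± 0.11 and Gapdh by 0.63 ± 0.06 (adjusted p = 1.03e-07). The calls of Pdk1 (1.43 ± 0.43, adjusted p = 0.0455) and Hk2 (0.91 ± 0.26, adjusted p = 0.0375) were lost when most single libraries were left out (adjusted p up to 0.1 and 0.0828), so that 7 to 9 members were higher. Hk1 had a value of 0.00 with an interval of -0.22 to 0.23. On unscaled CPM, 44.5% of all calls were higher in place of 55.4%, and the member count was again 9.

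Compared with early FLB, ES–FLB was lower in 9 of the 10 genes and higher in 1, Hk1, with a median of -1.92 against -0.01. Between these groups most genes differed, 41.8% lower and 40.3% higher of 13122. Ldha was 7.32-fold lower (-2.89 ± 0.17, adjusted p = 6.45e-05), Pgk1 4.62-fold, Eno1 4.52-fold, Aldoa 4.12-fold, Pfkl 4.07-fold, Gapdh 3.48-fold, Slc2a1 2.76-fold, Hk2 2.6-fold and Pdk1 2.45-fold, while Hk1 was 1.53-fold higher (0.61 ± 0.07). Compared with early HLB, ES–HLB was lower in 6 genes and higher in 1, again Hk1 (1.54-fold), with a median of -0.66 and a background of 39.9% lower and 38.5% higher of 13179. Ldha was 2.64-fold lower there, Gapdh 2.25-fold and Eno1 2.08-fold. Slc2a1 (0.03, interval -0.33 to 0.38) and Pdk1 (0.12, interval -0.80 to 1.03) did not pass, nor did Hk2 (-0.48 ± 0.18, adjusted p = 0.0537). In CPM without the common scale the share of higher calls was 62.4% in place of 49.1% for ES–FLB and 60.6% in place of 49.1% for ES–HLB, with the same member counts.

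Compared with E10.5 limb buds the distance was smaller. ES–FLB was lower than E10.5 FLB in 6 genes and higher in 0, with a median of -0.56 against 0.00 and a background of 36.0% lower and 35.7% higher of 13174. Ldha was 2.01-fold lower, Gapdh 1.96-fold (-0.97 ± 0.03), Pgk1 1.76-fold, Eno1 1.56-fold, Pfkl 1.55-fold and Aldoa 1.37-fold. ES–HLB split the members against E10.5 HLB: Pdk1 (1.8-fold), Hk2 (1.46-fold), Slc2a1 (1.38-fold) and Hk1 (1.21-fold) were higher, and Gapdh (1.85-fold), Ldha (1.78-fold), Eno1 (1.49-fold), Pfkl (1.46-fold), Pgk1 (1.41-fold) and Aldoa (1.14-fold) were lower. The median was -0.34, and 36.5% of 12912 genes were higher and 35.4% lower as background, so that the count of higher members was near the background. Without either library of E10.5 HLB, 2 members were higher, as Slc2a1 (adjusted p 0.164 and 0.0894) and Hk2 (0.267 and 0.175) lost their calls, and Hk2 lost it also without ES–HLB replicate 1 (0.122). The calls of Pfkl and Aldoa in ES–FLB were lost without most single libraries (adjusted p up to 0.111 and 0.134), and that of Aldoa in ES–HLB with all 26 libraries in a model (0.166) or without the common scale (0.16). ES-derived groups are sorted cells and the limb buds whole tissue. Erythroid markers were at 5.83 to 171 scaled CPM in sum in ES-derived libraries and at 2329 to 6855 in limb buds, and endothelial markers at 27.1 to 47.4 and 306 to 448. Surface epithelium markers summed to 112 to 163 in ES–FLB, 212 to 224 in ES–HLB and 254 to 439 in limb buds. Against E10.5 limb buds, 5 of 7 were lower and 0 higher in ES–FLB, while ES–HLB was mixed, with 3 lower and 2 higher. Neural and crest markers were higher in sum in ES-derived libraries, at 37.2 to 50.5 against 12.2 to 26.9 in limb buds. In ES–FLB against E10.5 FLB, 3 of 6 of these were higher and 1 lower. The part of these cells was not tested, and sorting cannot be told apart from culture.

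Other E10.5 tissues were set against E10.5 FLB, with all 26 libraries in a single model. The 3 comparisons share these control libraries. BA was close to it: 1 gene, Gapdh, was higher (1.13-fold, 0.17 ± 0.04, adjusted p = 0.00214) and 0 were lower, beside 11.1% higher and 9.60% lower of 14432 genes. With only the libraries of both groups, Pdk1 was called higher in BA as well (0.26, adjusted p = 0.0239). Ca was higher in 10 of the 10 genes, with a median of 1.08 against -0.02 over all genes, and a background of 36.7% higher and 37.9% lower. Hk1 was 8.57-fold higher (3.09 ± 0.08, adjusted p = 1.83e-25), Slc2a1 5.31-fold, Pdk1 4.36-fold, Aldoa 3.49-fold, Pgk1 2.14-fold, Ldha 2.09-fold, Hk2 1.84-fold, Gapdh 1.78-fold, Pfkl 1.53-fold and Eno1 1.22-fold. In CPM without the common scale Eno1 lost its call in Ca (0.15, adjusted p = 0.0764). Ca libraries held cardiomyocyte markers at 19351 to 23286 scaled CPM in sum and erythroid markers at 24333 to 35351, against 3.07 to 6.76 and 2814 to 4042 in E10.5 FLB, and which of these cells carry the Hk1 RNA was not tested. TB was higher in 9 genes and lower in 1, Hk1 (1.64-fold lower, -0.70 ± 0.08), with a median of 0.67 and a background of 23.3% higher and 22.3% lower. Slc2a1 was 2.42-fold higher in TB, Ldha 1.85-fold, Hk2 1.84-fold and Eno1 1.71-fold, and Pdk1 (1.67-fold) lost its call without TB replicate 2 (adjusted p = 0.056). Erythroid markers of TB summed to 5852 to 6781.

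In some groups, a single replicate stood high or low in most members. Besides ES–FLB replicate 1 and early HLB replicate 1, replicate 1 of Ca was highest of its group in 10 of the 10 genes (by a median of 0.14), that of ES–HLB in 8 (0.17), and replicate 3 of early FLB was lowest in 9 (-0.11). In others the members were mixed: each E10.5 HLB library was highest in 5 genes and lowest in 5, BA replicate 2 highest in 5 and lowest in 4, and TB replicate 1 highest in 3 and lowest in 4. Genes known to be induced by hypoxia, 16 of them tested, leaned the same way in these libraries, by medians of 0.25 in ES–FLB replicate 1, -0.16 in early HLB replicate 1, 0.23 in ES–HLB replicate 1 and -0.18 in early FLB replicate 3. In Ca replicate 1 their median was 0.02.

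Other genes of the pathway and its neighbours were read from lists (26 other glycolysis genes, 12 of pyruvate entry into mitochondria, 7 of gluconeogenesis, 7 of the pentose phosphate pathway, 16 each of the citric acid cycle and the respiratory chain, 17 hypoxia-inducible genes outside glycolysis and 8 hypoxia and Myc regulators). In early limb buds, 9 of 21 other glycolysis genes tested were lower in HLB and 3 higher, beside 11.2% and 9.08% of all genes. Slc16a3, the exporter of lactate, was at 262 scaled CPM in early FLB and 125 in early HLB (-1.10 ± 0.19, adjusted p = 0.0188), and Pfkp, the platelet form of phosphofructokinase, at 15 and 6.38. Ldhb went the other way, from 56.1 in early FLB to 135 in early HLB (1.26 ± 0.15). Of the 16 hypoxia-inducible genes tested, 13 were lower in early HLB and 1 higher, with a median of -0.49. Bnip3, a gene of mitophagy, was at 51.4 in early HLB and 130 in early FLB (-1.33 ± 0.11), and Adm, low in both, at 0.521 and 2.35. Of the citric acid cycle and respiratory chain genes, 16 tested in each, 1 of each list was higher and 0 lower, and without the common scale 6 of the respiratory chain were higher.

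At E10.5 the lists no longer leaned towards FLB. Of the other glycolysis genes, 7 of 23 were higher in HLB and 4 lower, and of the hypoxia-inducible genes 2 of 15 were higher (Higd1a by 0.51 ± 0.08) and 2 lower (Ddit4 by -0.65 ± 0.08). Of all genes, 13.3% were higher and 11.5% lower, so the hypoxia-inducible counts were near the background. Of the genes of mitochondrial oxidation, 10 of 16 citric acid cycle genes and 10 of 16 respiratory chain genes were higher in HLB and 0 lower, Cycs (cytochrome c) by 0.41 ± 0.05 among them. Without the common scale these counts were 4 and 6, with 1 respiratory chain gene lower. Their medians were 0.18 and 0.17, against 0.26 for the 10 glycolysis genes. Mycn, a Myc family factor of limb bud growth, was at 117 scaled CPM in HLB and at 96.3 in FLB (0.27 ± 0.06).

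In culture, 6 of 21 other glycolysis genes were higher in ES–HLB and 1 lower, beside 12.3% and 12.4% of all genes. Slc2a3 (GLUT3), a further glucose transporter, was at 223 scaled CPM in ES–HLB and 73.2 in ES–FLB (1.62 ± 0.15, adjusted p = 0.00171), and Pfkp at 37.8 and 16.8 (1.16 ± 0.10). Of 16 hypoxia-inducible genes 4 were higher and 0 lower, Ero1l (0.48 ± 0.09) and P4ha2 (0.39 ± 0.07) first. Mycn was at 56.9 in ES–HLB and 29.3 in ES–FLB (0.94 ± 0.08), while Myc was lower, at 38.7 and 47 (-0.27 ± 0.09, adjusted p = 0.0229).

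For these lists too, the hindlimb-forelimb contrast of culture was tested against that of early limb buds, with E10.5 limb buds not included. In the early contrast limb and stage cannot be told apart. The value of the culture contrast relative to the early one is given here. It was higher in 9 of 23 other glycolysis genes and lower in 2, and higher in 10 of 16 hypoxia-inducible genes and lower in 1, with medians of 0.59 and 0.75. Slc2a3 (2.53 ± 0.27), Pfkp (2.33 ± 0.19) and Bnip3 (1.82 ± 0.30) were among them. The background was 12.5% higher and 10% lower of 13616 genes, so the lower counts of both lists did not exceed it.

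Across stages in FLB, 10 of 23 other glycolysis genes were lower at E10.5 and 8 higher, beside 36.1% and 29.0% of all genes. Slc16a3 fell from 262 to 47.8 scaled CPM (-2.45 ± 0.07) and Pfkp from 15 to 4.79, while Ldhb rose from 56.1 to 247 (2.14 ± 0.10). Of 16 hypoxia-inducible genes 11 were lower, with a median of -0.68, and 3 higher. Of the regulators, 5 of 8 were lower and 2 higher, but 3 and 3 under either other scaling. Among those lower were Myc from 98.1 to 33.6 (-1.54 ± 0.08) and Mycn from 214 to 96.3 (-1.15 ± 0.05). In HLB 7 of 21 other glycolysis genes and 2 of 15 hypoxia-inducible genes were lower, 3 and 2 higher, while Myc (-1.38 ± 0.10) and Mycn (-0.85 ± 0.05) also fell. Of all genes in HLB, 17.6% were lower and 11.5% higher. Citric acid cycle genes were lower in 13 of 16 in FLB and respiratory chain genes in 10 of 16, beside 36.1% of all genes, with medians of -0.27 and -0.18. In HLB 3 of 16 of each list were lower, near the 17.6% of all genes. The FLB counts rest on the scale: without it 7 citric acid cycle genes were lower and 2 higher, and 3 respiratory chain genes lower and 3 higher. In HLB 0 citric acid cycle genes were then lower and 1 higher, and 3 respiratory chain genes lower and 2 higher. The hypoxia-inducible genes stood at 10 lower and 3 higher in FLB without it. Hif1a RNA itself was between 179 and 232 scaled CPM in every limb bud and ES-derived library.

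**Figure D5:**
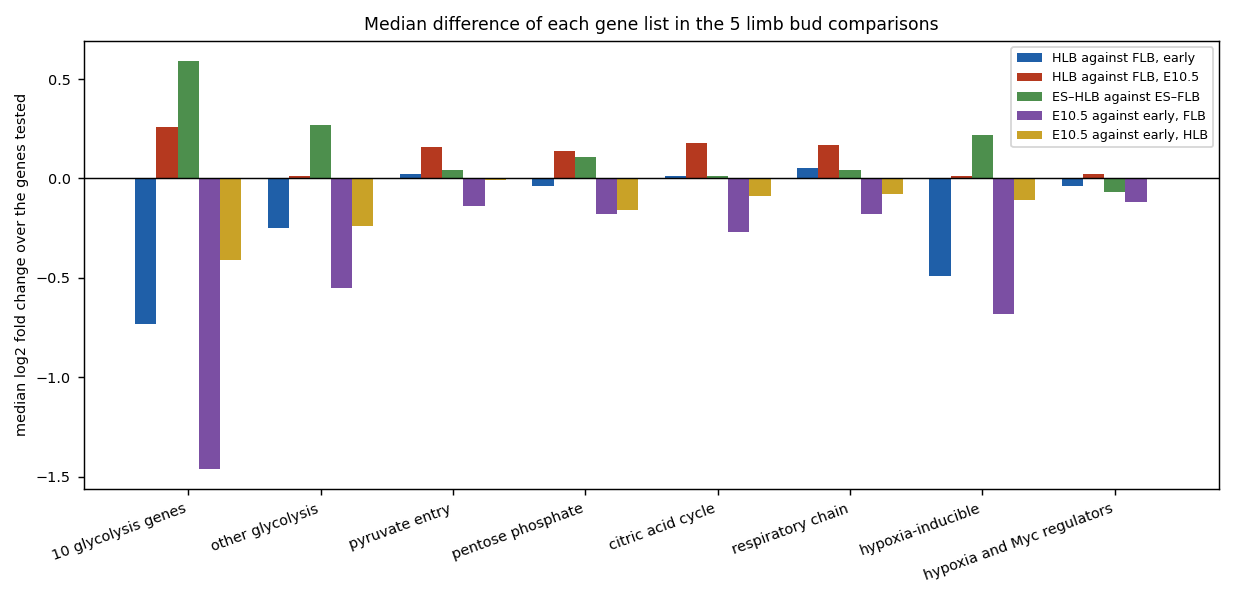
Median log2 fold change over the tested genes of each list in 5 comparisons of limb buds and ES-derived tissue; bars start at 0, and gluconeogenesis genes, of which 3 were tested, are left out. The 10 glycolysis genes have medians of -0.73, 0.26, 0.59, -1.46 and -0.41 from left to right, and the hypoxia-inducible genes stand at -0.49, 0.01, 0.22, -0.68 and -0.11.

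Over the 9 group means, a description with no test, Aldoa followed the mean of the other 9 members most closely (Pearson r = 0.988), then Pgk1 (0.971), Ldha (0.924), Pfkl (0.892), Gapdh (0.853), Slc2a1 (0.844), Pdk1 (0.805), Hk2 (0.775) and Eno1 (0.740), and Hk1 least (0.235). The tightest pairs were Pfkl with Ldha (0.984) and Pgk1 with Ldha (0.978), and Hk1 with Eno1 was below 0 (-0.277). Among 5891 genes of sufficient level and spread, those most like the members' mean profile were Slc16a3 (r = 0.994), Fam169a and Tpi1 (0.979 each), Tspan4 (0.978), Fam188a (0.969), Pard6b (0.967), Shroom3 (0.962), Fam162a (0.958), Rabggtb (0.955) and 6330409N04Rik (0.954). Tpi1, triose phosphate isomerase, and Slc16a3 belong to the list of other glycolysis genes. Slc16a3 ran from 262 scaled CPM in early FLB and 216 in Ca to 36.9 in ES–FLB. These 9 points share their libraries and the common scale.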

How the data were processed

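RNA was sequenced as stranded TruSeq mRNA libraries. Per the labels, the submitters' processing notes and the study's methods, the authors checked reads with FastQC 0.11.5, aligned them with HISAT2 2.0.4 to mm10 and counted them on RefSeq genes with Cuffdiff (Cufflinks 2.1.1 in the notes, while the methods name another version), and edgeR 3.16.2 was used for normalization. The deposited values are CPM (counts scaled to a fixed total), which sum to 1000000 in each library, and the strand setting of the counting is not given in the sources used here. Whole reads could not be recovered for nearly all genes, so no count model was fitted. E10.5 HLB replicate 2 was left out, because 3965 genes above 2 CPM in both other replicates were at 0 there.

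CPM of 26 libraries were scaled by trimmed means of log ratios (30% of ratios and 5% of intensities trimmed), and log2(scaled CPM + 0.5) was tested with limma 3.58.1 (trend, robust) in R 4.3.3 for genes of at least 1 CPM in at least 3 compared libraries. A fold change on this scale understates that of low genes. Comparisons of limb buds and ES-derived tissue used only their own libraries, and the others all 26. Benjamini-Hochberg adjustment ran over all genes tested, with a threshold of 0.05. Python 3.11.15, numpy 2.4.6, pandas 2.3.3 and matplotlib 3.10.9 were used for the rest. Depth gives a floor (3 reads) of 0.136 to 0.541 CPM, which covers counting error only. Replicates correlated at r = 0.993 to 0.998.

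Members and lists were chosen with earlier results of these data known. Named were the 10 members and, per comparison, at most the 3 called other glycolysis genes and the 2 called genes of each other list with the largest changes, and the 10 genes nearest the members' profile among those of at least 16 scaled CPM in a group and an SD of at least 0.3 (log2) over group means. Adm, Cycs, Hif1a, Mycn, Vegfa, Ndrg1 and the gluconeogenesis genes named outside such a choice were picked after their values were seen. Tigar, Pkm, Mpc1 and Mpc2 were found under older symbols. The fits were tested on simulated data, where wrong calls in the comparison of E10.5 with early HLB exceeded the nominal share. Alternatives were another scaling or none, other pseudocounts, no filter, other libraries in the fit, a replicate block and leaving out each library. Positions are those of the GRCm38 annotation.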

Additional observations from a re-analysis of the deposited data

Results flagged for a closer look

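The stage changes of HLB and FLB differed, by a test of the difference itself (limma, adjusted over all genes), in 8 of the 10 genes. Of all 12992 genes tested, 13.0% were called higher in this difference and 10.2% lower. The difference on the log2 scale was 1.30 for Ldha, 1.19 for Aldoa, 1.18 for Pfkl, 1.14 for Pgk1, 1.04 for Eno1, 0.85 for Slc2a1, 0.61 for Hk2 and 0.55 for Gapdh. In each case the FLB value fell further than that of HLB. The labels give both early groups the same age and the study's text does not, so limb and stage cannot be told apart here. Early limb buds were sequenced more deeply than E10.5 limb buds in both limbs. Estimated reads were 21008403 to 22123894 in early FLB and 19646365 to 21008403 in early HLB. At E10.5 they were 5543237 to 5910165 in FLB and 5649718 to 5733945 in HLB, and the part of depth was not tested.

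The hindlimb-forelimb differences of ES-derived and early embryonic tissue also differed by test, in 9 of the 10 genes. Among 13616 genes tested, 12.5% were called higher in this test and 10% lower. The difference was 1.51 for Slc2a1, 1.50 for Ldha, 1.48 for Aldoa, 1.47 for Pgk1, 1.43 for Pdk1, 1.30 for Pfkl, 1.12 for Eno1, 0.91 for Hk2 and 0.63 for Gapdh. The calls of Pdk1 and Hk2 were lost without most single libraries (adjusted p up to 0.1 and 0.0828). These comparisons share early FLB and early HLB with the stage comparisons. Limb and stage cannot be told apart in the early difference. ES-derived groups are sorted cultured cells, while early limb buds are whole tissue. ES–FLB aggregates had received retinoic acid and ES–HLB aggregates an antagonist of its receptor. The part of each in the result was not tested. No group held 4 libraries or more, so single libraries were not tested as outliers.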

How the results depend on the processing

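Over all alternatives, 1823 values of members kept their direction and side of the threshold, 62 kept their direction but lost the call, 30 gained it and 25 changed sign, none of the latter on a called value. The sign changes were of Hk1 in the ES against early difference (-0.05 on CPM as deposited, -0.04 to 0.08 without single libraries), in ES–HLB against ES–FLB (-0.03 to 0.08 without single libraries) and in early HLB against early FLB (-0.06 to 0.05), and of Hk2 in E10.5 HLB against FLB (-0.04 on CPM as deposited, -0.02 with a replicate block, -0.03 to 0.09 without single libraries). Without single libraries the sign also changed for Pdk1 (-0.20 to 0.35) and Slc2a1 (-0.10 to 0.13) in ES–HLB against early HLB and for Pgk1 (-0.05 to 0.04) and Slc2a1 (-0.13 to 0.01) in BA. Counts of members called moved in some settings. With all 26 libraries in a model, 4 were higher in E10.5 HLB and 7 in ES–HLB against ES–FLB, and with only the libraries compared, 2 were higher in BA. On CPM as deposited 1 was lower in E10.5 HLB. With the replicate block, 9 were higher in ES–HLB against ES–FLB and 1 in ES–FLB against E10.5 FLB. Without single libraries, members called ranged from 0 to 1 higher and 3 to 9 lower in E10.5 against early HLB, 0 to 1 higher and 4 to 7 lower in ES–FLB against E10.5 FLB, 2 to 4 higher in ES–HLB against E10.5 HLB and 2 to 7 higher in ES–HLB against ES–FLB. The causes were not tested, beyond fewer libraries in the last kind, where a lone E10.5 HLB library is assumed to vary like the other groups.

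Counts over all genes moved by more than 1.5 times in some settings. On CPM as deposited, E10.5 against early FLB gave 5530 higher and 2845 lower (3707 and 4613 as reported), E10.5 HLB against FLB 923 and 2046 (1669 and 1449) and the difference of stage changes 826 and 2025 (1692 and 1331). Without E10.5 HLB replicate 1 the latter pair gave 1026 and 1102, and 1068 and 936. E10.5 against early HLB (1424 and 2177) gave 666 and 1152 without E10.5 replicate 1, 629 and 1091 without replicate 3, and 881 and 1276 without early HLB replicate 3. Early HLB against FLB (1137 and 1404) gave 652 and 753 without early FLB replicate 1, 756 and 908 without replicate 3, and 653 and 964 without early HLB replicate 3. CPM as deposited moved the median of all genes by more than 0.1, from -0.04 to 0.14 in the FLB stage comparison, from -0.01 to 0.23 and 0.18 for ES–FLB and ES–HLB against early tissue, from 0.01 to 0.13 for ES–HLB against E10.5 HLB, from -0.02 to -0.13 in Ca and from 0.02 to -0.10 in the difference of stage changes.

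Libraries share replicate numbers, but deviations of same-numbered libraries correlated at -0.088 to 0.126 only, so the numbers were not taken as pairs. The replicate block moved the genes called from 3254 to 3843 in ES–HLB against ES–FLB, and by less than 1.5 times in every comparison. In the ES against early difference the block took the call of Pdk1 (adjusted p = 0.0846). A count model on recovered reads was planned and not run, since the reads did not come out whole.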

Other observations

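ES-derived cells and early limb buds differed in other groups of metabolic genes as well (limma, as above). Of the 16 citric acid cycle genes, 16 were lower in ES–FLB than in early FLB and 16 lower in ES–HLB than in early HLB, and of the 16 respiratory chain genes 15 and 15 were lower and 1 and 1 higher, beside 41.8% and 39.9% of all genes lower. On CPM as deposited 9 and 11 citric acid cycle genes and 12 and 15 respiratory chain genes were lower. All 7 pentose phosphate genes were lower in both comparisons, 4 and 5 of them on CPM as deposited. Of the hypoxia-inducible genes outside glycolysis, 8 of 16 were higher and 5 lower in ES–FLB than in early FLB, near the 40.3% and 41.8% of all genes, and 11 of 15 were higher and 2 lower in ES–HLB than in early HLB, beside 38.5% and 39.9% of all genes. Ddit4, an inhibitor of mTORC1, was at 160 scaled CPM in ES–FLB and 34.9 in early FLB (2.18 ± 0.16), and at 178 in ES–HLB and 25.6 in early HLB (2.76 ± 0.15). Vegfa, a vascular growth factor, had means of 140 and 137 in ES–FLB and ES–HLB and of 76.9 and 45.9 in early FLB and early HLB. Sorted cells and whole tissue, and culture and embryo, cannot be told apart in these values.

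In Ca, all 16 citric acid cycle genes, all 16 respiratory chain genes and 10 of 12 genes of pyruvate entry were higher than in E10.5 FLB, with medians of 1.15 and 1.18 for the first lists, on CPM as deposited as well. Of all genes, 36.7% were higher in Ca and 37.9% lower. Pfkp was at 209 scaled CPM there and at 4.79 in E10.5 FLB (5.32 ± 0.14), and Hif1a at 370 and 196. The pentose phosphate genes went the other way, with 4 of 7 lower and 1 higher. G6pc, the glucose 6-phosphatase of liver, was at 0 in every library, and Pck1 and Fbp1, also of gluconeogenesis, stayed at or below 0.13 and 0.624 scaled CPM.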
